A study of Homo sapiens with 4 samples.

Results

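The genes described here encode the subunits of the proteasome, its activators and inhibitor, and the chaperones that assemble it. They were chosen by name alone, as every gene name made of PSM, a letter from A to G and a number, and 48 of the 59384 readable gene names met that rule. There were 8 core alpha genes (PSMA), 11 core beta genes (PSMB), 6 ATPase genes (PSMC), 14 non-ATPase genes of the regulatory particle (PSMD), 4 activator genes (PSME), and 5 genes of the inhibitor PSMF1 and the assembly chaperones PSMG1 to PSMG4. RNA was sequenced from Daoy cells, an established human medulloblastoma line. In the shFABP4 group the cells carried a lentivirus with a short hairpin against FABP4, a fatty acid binding protein, and their genotype is labelled as an FABP4 knockdown. In the pLKO group they carried the control virus and are labelled wild type. Each group held 2 libraries, and the labels do not say whether separate cultures were used. A p-value here reflects how these libraries vary among themselves, which may be technical. All libraries shared the same parent line, and the labels name neither the hairpin sequence nor a time after infection.

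The proteasome degrades proteins that have been tagged with ubiquitin. Its core is a barrel of stacked rings: outer alpha rings that gate entry, and inner beta rings that hold the proteolytic sites. A regulatory particle docks on the barrel, where its non-ATPase subunits bind and remove ubiquitin and its ATPase ring unfolds the substrate and feeds it in. Alternative activators can take the place of the regulatory particle, and in cells exposed to interferon some catalytic beta subunits are exchanged for inducible forms that favour peptides for antigen presentation.

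The library labelled shFABP4 1 stood apart from the others. Depth was 2539862 and 20431660 counted fragments in shFABP4 libraries 1 and 2, against 8988961 and 13839885 in pLKO libraries 1 and 2. Coding genes that were at 0 in every other library were covered in shFABP4 1, at rates that rose with GC content, and this background was estimated at 54.6% of its fragments. Over 380 olfactory receptor genes, which are silent in most cells, it held 6.55 fragments per kb of exon, while shFABP4 2 held 0.222, pLKO 1 held 0.213 and pLKO 2 held 0.355. FABP4 itself had 14 and 0 fragments in the shFABP4 libraries, against 1 and 6 in the pLKO libraries, and background alone accounted for an expected 5.21 fragments in shFABP4 1. Such counts check neither knockdown label, and the count in shFABP4 1 goes against it, so directions below are those of the libraries as labelled. Of 9 genes read as medulloblastoma markers, not all of them particular to its Hedgehog type, ATOH1, BARHL1 and OTX2 were at 0 in shFABP4 2 and both pLKO libraries. The list summed to 354 and 104 CPM (fragments scaled to a common library total) in the shFABP4 libraries against 13.2 and 14.4 CPM in the pLKO libraries. In shFABP4 2, SFRP1 had 942 fragments against 6 and 16 in pLKO, and GLI1 had 479 against 49 and 72. ZIC2 had 386 against 38 and 71, and GLI2 had 187 against 17 and 23. PTCH1 had 134 against 9 and 14, and ZIC1 had 3 against 0 and 3. Background alone was expected to give 586 of the 898 fragments of this list in shFABP4 1. Lymphoid and myeloid markers (6 genes) summed to 82.7 and 1.08 CPM in the shFABP4 libraries against 2.45 and 3.11 CPM in the pLKO libraries, with 169 of the 210 fragments in shFABP4 1 expected from background. Fibroblast markers (4 genes) summed to 407 and 51 CPM in the shFABP4 libraries, against 4.78 and 4.19 CPM in the pLKO libraries, with 390 of the 1033 fragments in shFABP4 1 expected from background. In shFABP4 2 nearly all of that sum was COL1A1, at 1033 of 1043 fragments, while PDGFRB had 9, COL1A2 had 1 and DCN had 0. Whether these lists have a part in any proteasome value was not tested.

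Proteasome genes together took a like share of 3 libraries. They made up 0.398% of fragments in shFABP4 1 and 1.29% in shFABP4 2, against 1.26% in pLKO 1 and 1.25% in pLKO 2. The low share was that of the library with background, whose part in it was not tested. In that library 16 of the 48 genes had less than 2 times the fragments expected from background, and 26 were not expected to exceed it by 5 times. The other 22 belonged to a set of 1047 coding genes whose RNA in shFABP4 1, predicted from the other libraries, was at least 5 times the background. The fragments counted there did not reach that for every gene. With background included, PSME2, PSMD2 and PSMD4 had 4.38, 4.7 and 4.79 times the expected background. The rest of the 22 ranged from 5.52 times for PSMA1 to 68.6 times for PSMA7. Within the fragments of this high-signal set the 22 proteasome genes made up 2.01% and 1.88% in the shFABP4 libraries and 1.81% and 1.79% in the pLKO libraries. As a fraction of high-signal fragments, the 22 genes together were thus no smaller in either shFABP4 library than in pLKO. This rested on PSMA7, which took 19.3% and 25.4% of all proteasome fragments in shFABP4 and 11.0% and 11.3% in pLKO. Without PSMA7 the fraction was lower in both shFABP4 libraries than in pLKO. In bulk RNA, fewer cells of a type and less RNA per cell cannot be told apart.

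**Figure D1:**
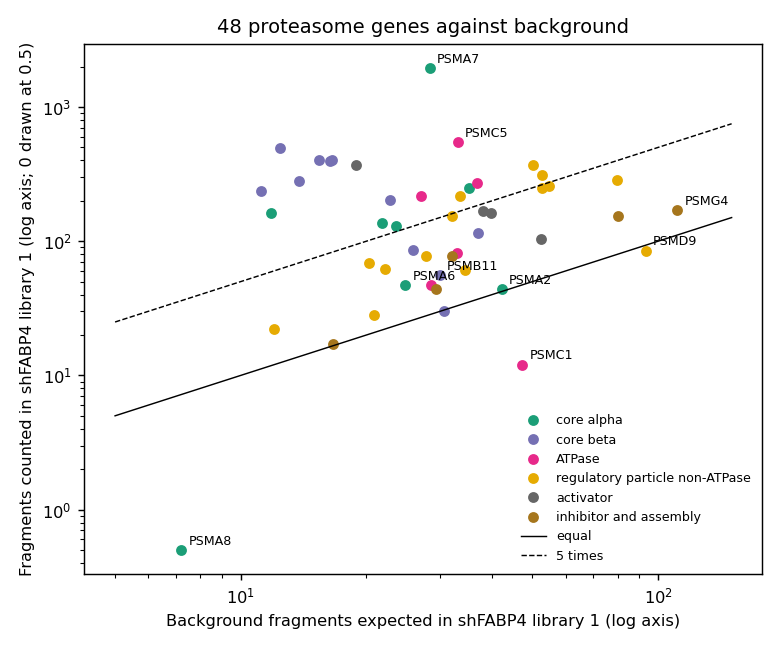
Each point is 1 of the 48 proteasome genes, with the background fragments expected in shFABP4 library 1 on the horizontal axis and the fragments counted there on the vertical axis, both log scales. PSMA7, at 1950 fragments against 28.4 expected, lies farthest above background, while PSMA8, PSMC1, PSMD9 and PSMB10 lie below the line of equality.

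A test over all genes separated no proteasome gene. Of 43 members that passed the filter on low counts, 0 had an adjusted p under 0.05 in either direction (edgeR quasi-likelihood test, Benjamini-Hochberg over 14735 genes, of which 0% were called). At an unadjusted p under 0.05, 1 member was higher and 3 were lower, where 8.06% and 4.28% of all genes were. DESeq2 called 2 members lower, PSMD2 and PSMD3 (adjusted p = 0.0149 and 0.0252), beside 1.16% of all genes called lower and 3.72% called higher, and limma-voom called 0. The members' median log2 fold change was -0.76 and that of all genes tested 0.34. The size of this gap depended on the shFABP4 library used. Without shFABP4 1 the medians were -0.16 for members and 0.04 for all genes. Without shFABP4 2 they were -3.37 and 2.22. The 5 members that did not pass the filter were PSMA2, PSMA6, PSMA8, PSMB10 and PSMB11. An exact permutation of 2 libraries against 2 cannot give a p under 0.333, so no value below rests on one.

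Within the high-signal set, 3 of the 22 proteasome genes rose in shFABP4 and 2 fell. The genes that rose were PSMA3, PSMA7 and PSME1, and those that fell were PSMD13 and PSME2 (edgeR quasi-likelihood test, Benjamini-Hochberg over 1047 genes). The calls are 13.6% of the 22 genes upward and 9.09% downward, while 18.1% and 17.6% of all high-signal genes were called, so the share of calls was no larger among proteasome genes than among high-signal genes as a whole. Values of these genes are given as scaled CPM, that is, CPM after the library totals were scaled on high-signal genes. On that scale both shFABP4 libraries lay above both pLKO libraries for 8 of the 22 genes and below both for 12, with 37.5% and 41.5% of high-signal genes doing so. Subtraction of the expected background left 8 above and 11 below, beside 37.2% and 41.7% of high-signal genes. The scaling matters for every direction given here: on plain CPM, where background counts toward the total, shFABP4 1 lay below both pLKO libraries for all 22 genes, and with library totals as the scale the median log2 fold change of all high-signal genes moved to -0.76, against -0.02. The members' own median moved to -0.88 with library totals, against -0.22 with scaling on high-signal genes. Without either pLKO library the calls among the 22 were PSMA3, which rose, and PSMD2, which fell, while PSMA7, PSME1, PSME2 and PSMD13 were lost with fold changes of like size, and 11.9% of high-signal genes were called without pLKO 1 and 11.6% without pLKO 2 (edgeR, for PSMA7 adjusted p = 0.267 without pLKO 1 and 0.247 without pLKO 2). PSMA7 and PSME1 were also lost when the high-signal multiple was 2 (adjusted p = 0.127 and 0.137), and PSME2 with upper-quartile scaling (adjusted p = 0.0530). With library totals as the scale 0 of the 22 passed in edgeR and 2 had an unadjusted p under 0.05.

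**Figure D2:**
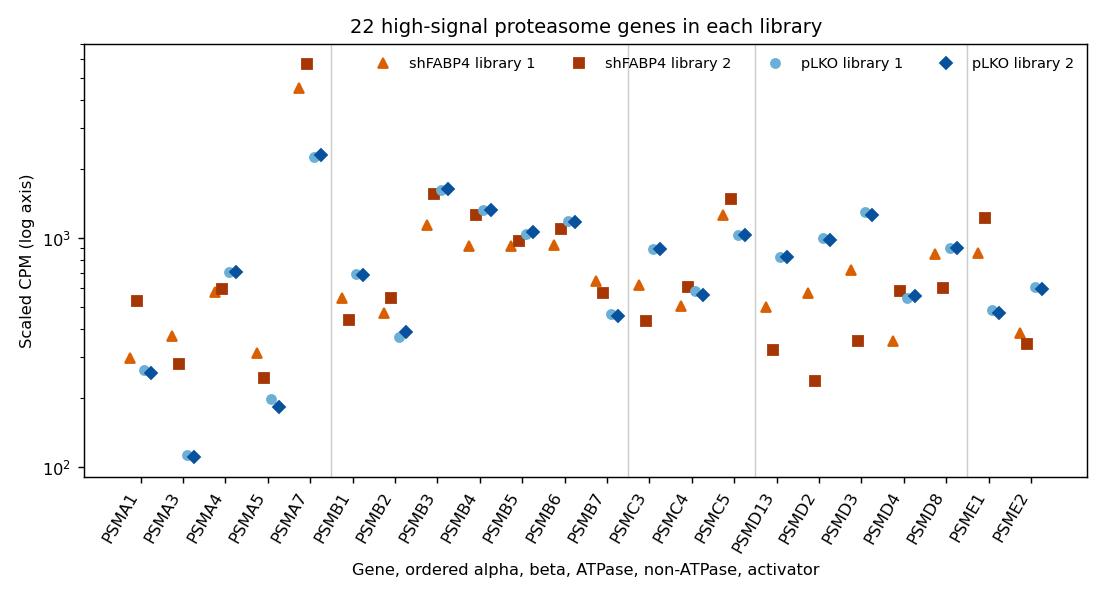
Scaled CPM on a log axis for the 22 high-signal proteasome genes in each of the 4 libraries, with groups of subunits separated by vertical lines. PSMA7 is the highest gene in every library, at 4490 and 5750 scaled CPM in shFABP4 and 2250 and 2300 in pLKO, and the pLKO points lie almost on each other.

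Of the 5 core alpha genes in the high-signal set, 2 rose, PSMA7 and PSMA3. PSMA7 encodes an alpha ring subunit (chr20:62136733-62143440, GRCh38, minus strand) and was the most abundant proteasome gene per length in all 4 libraries. It had 1950 and 66839 fragments in the shFABP4 libraries, against 12450 and 19535 in the pLKO libraries. In scaled CPM these are 4490 and 5750 in shFABP4, against 2250 and 2300 in pLKO, a mean of 5120 ± 890 against 2270 ± 38.7 (SD, n = 2 each). Both shFABP4 libraries lay well above both pLKO libraries. PSMA7 rose by 1.17 on the log2 scale with an SE of 0.20 (edgeR, adjusted p = 0.0217). A share among proteasome fragments, which needs no scaling, showed the same order: PSMA7 took 19.3% and 25.4% in the shFABP4 libraries and 11.0% and 11.3% in the pLKO libraries, and 22.5% in shFABP4 1 with background subtracted.

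PSMA3, another alpha ring subunit (chr14:58244843-58272012, plus strand), had the largest fold of the 22. It had 162 and 3285 fragments in the shFABP4 libraries, against 620 and 934 in the pLKO libraries. Scaled, these were 373 and 282 CPM in shFABP4 and 112 and 110 CPM in pLKO, so the groups did not overlap and the shallower shFABP4 library was the higher. PSMA3 rose by 1.54 on the log2 scale with an SE of 0.19 (edgeR, adjusted p = 0.0145), and a correction for GC content and exon length brought this to 1.0 (adjusted p = 0.0477). PSMA3 has the lowest GC content of the 22 genes, at 36.7%. Its share of proteasome fragments was 1.60% and 1.25% in shFABP4 and 0.546% and 0.539% in pLKO.

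Of the other alpha genes, PSMA4 was lower in scaled CPM in both shFABP4 libraries, at 578 and 598 against 711 and 710 in pLKO, but did not pass (log2 fold change -0.27, adjusted p = 0.144, edgeR). With the GC and length correction it passed at -0.94 (adjusted p = 0.0225). PSMA5 had 313 and 244 scaled CPM in shFABP4 and 198 and 182 in pLKO, and PSMA1 had 299 and 527 in shFABP4 and 264 and 257 in pLKO. Both lay above pLKO in both shFABP4 libraries, and neither passed (log2 fold changes 0.53 and 0.69, adjusted p = 0.0862 and 0.153, edgeR). Alpha genes as a group took 26.9% and 32.7% of proteasome fragments in shFABP4, against 17.2% and 17.4% in pLKO. Most of that difference was PSMA7: without it the remaining alpha genes took 9.43% and 9.78% of the remaining fragments in shFABP4 and 7.04% and 6.95% in pLKO. The testis-restricted subunit PSMA8 had 0 and 0 fragments in shFABP4 and 2 and 2 in pLKO, and a count of 0 allows up to 1.18 CPM in shFABP4 1 and 0.147 CPM in shFABP4 2.

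The stretch just upstream of the first PSMA3 exon is shown because PSMA3 had the largest log2 fold change among the 22 high-signal genes. It is chr14:58244713-58244842 of GRCh38.p14 (RefSeq, plus strand), and the capitals mark 2 CCAAT boxes, 1 on each strand, a motif of many active promoters.
PSMA3: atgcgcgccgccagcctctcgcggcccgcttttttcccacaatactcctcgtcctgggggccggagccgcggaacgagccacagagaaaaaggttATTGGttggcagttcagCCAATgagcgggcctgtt
RefSeq promoter sequences were found for 42 of the 48 genes, not for PSMA7, PSMB1, PSMB6, PSMB7, PSMD4 and PSMG3. In the 250 bases before the gene start, CCAAT on either strand was found for 19 of the 42 (45.2%) and for 37% of 27305 genes. The GC box GGGCGG was found for 26 of the 42 (61.9%) and for 46.2% of all genes, and the ETS site CCGGAAGT for 6 (14.3%) and 4.13%. A match is a description of the letters only.

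No high-signal core beta gene had a fold change past the threshold. Of the 7 in the high-signal set 0 passed the test in either direction (edgeR, with 3 at an unadjusted p under 0.05). DESeq2 called 0 and limma-voom 2, tools that called 44.9% and 50% of high-signal genes. In both shFABP4 libraries 2 lay above pLKO and 5 below, where 37.5% and 41.5% of high-signal genes did. With background subtracted PSMB5 no longer lay below. The constitutive catalytic subunits are PSMB5 with chymotrypsin-like, PSMB6 with caspase-like and PSMB7 with trypsin-like activity. PSMB5 had 923 and 964 scaled CPM in shFABP4, against 1040 and 1060 in pLKO. PSMB6 had 927 and 1090 in shFABP4, against 1180 and 1170 in pLKO. Both were slightly lower in shFABP4 on this scale, by log2 fold changes of -0.16 and -0.22 (adjusted p = 0.363 and 0.302, edgeR), and with the GC and length correction the values were 0.01 and 0.11. PSMB7 had 644 and 571 scaled CPM in shFABP4, against 465 and 457 in pLKO (log2 fold change 0.39, adjusted p = 0.0883, edgeR). PSMB7 thus lay on the other side of pLKO from the other catalytic genes, without passing the test.

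Among the structural beta subunits, PSMB1 had 543 and 435 scaled CPM in shFABP4, against 697 and 687 in pLKO (log2 fold change -0.51, adjusted p = 0.0805, edgeR). PSMB2 had 467 and 543 in shFABP4, against 369 and 386 in pLKO (log2 fold change 0.42, adjusted p = 0.0925, edgeR). The groups did not overlap for either gene, in opposite directions. PSMB1 passed with the GC and length correction at -1.02 (adjusted p = 0.0324), while PSMB2 then stood at -0.07. PSMB3 and PSMB4, with log2 fold changes of -0.27 and -0.28 (adjusted p = 0.343 and 0.331, edgeR), completed the set. Beta genes took 26.7% and 29.4% of proteasome fragments in shFABP4 and 34.5% and 34.7% in pLKO. With PSMA7 left out of the total, shFABP4 2 at 39.4% was close to pLKO at 38.7% and 39.0%, and shFABP4 1 stood at 33.1%, or 37.4% with background subtracted.

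The inducible catalytic genes PSMB8 and PSMB9 were detected in every library but were not in the high-signal set. PSMB8 had 115 and 1848 fragments in shFABP4, with 37.0 expected from background in shFABP4 1, against 1377 and 2100 in pLKO. PSMB9 had 86 and 1028 fragments in shFABP4, with 25.8 expected from background in shFABP4 1, against 663 and 994 in pLKO. Set against the constitutive subunit that it replaces, PSMB8 made up 22.3% of PSMB8 and PSMB5 fragments in shFABP4 1 (95% exact binomial interval 18.8 to 26.1%) and 14.2% in shFABP4 2, against 19.2% and 18.9% in pLKO. PSMB9 made up 17.6% of PSMB9 and PSMB6 fragments in shFABP4 1 (14.3 to 21.3%) and 7.50% in shFABP4 2, against 9.22% and 9.11% in pLKO. Intervals cover counting error only. In both pairs the inducible share was thus lower than pLKO in shFABP4 2 and higher in shFABP4 1, where for PSMB8 the interval includes the pLKO values. Over all genes neither passed, with log2 fold changes of -1.63 for PSMB8 and -1.30 for PSMB9 (edgeR adjusted p = 0.403 for each). With background subtracted, shFABP4 1 lay below pLKO for PSMB8, at 16.9%, and above it for PSMB9, at 13.4%, so the direction for PSMB8 in this library depends on the background. PSMB11, which is restricted to the thymus cortex, had 56 and 0 fragments in shFABP4 and 1 and 1 in pLKO, with 30 expected from background in shFABP4 1.

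**Figure D3:**
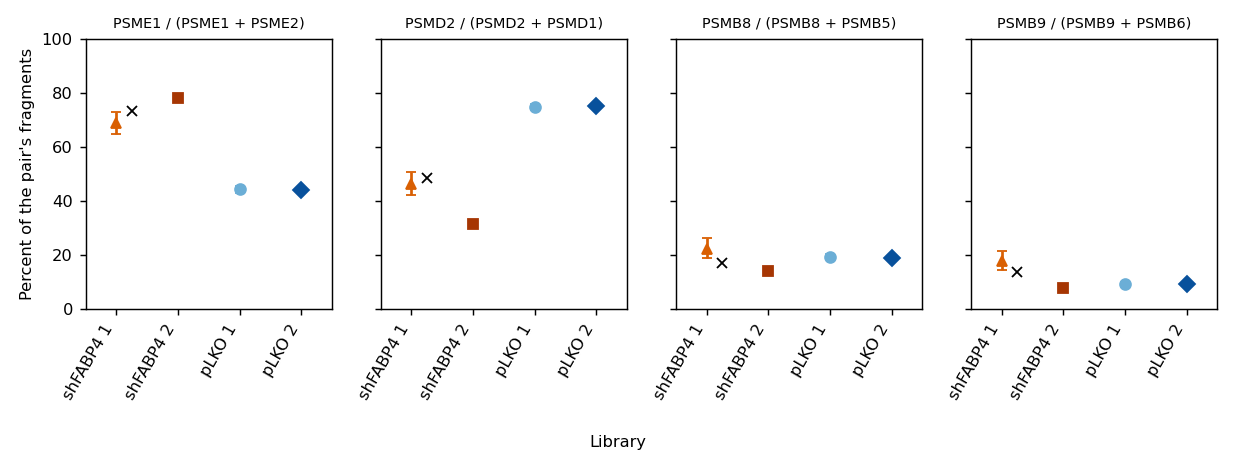
Share of the first gene in the fragments of a pair of related subunits, in percent, for each library, with exact 95% binomial intervals that cover counting error only. PSME1 holds 69.0% and 78.0% of its pair in the shFABP4 libraries against 44.3% and 43.9% in pLKO, and PSMD2 holds 46.3% and 31.2% against 74.8% and 75.2%.

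Of the ATPase genes, 0 of the 3 in the high-signal set passed (edgeR; 1 had an unadjusted p under 0.05, and DESeq2 and limma-voom called 1 each). PSMC3 had 621 and 434 scaled CPM in shFABP4, against 895 and 892 in pLKO, with an estimate of -0.77 on the log2 scale, an SE of 0.22 and an adjusted p of 0.0632 by edgeR. PSMC5 had 1260 and 1480 in shFABP4, against 1030 and 1030 in pLKO, a log2 fold change of 0.42 (adjusted p = 0.101, edgeR). These ATPase subunits sit in the same ring, and in both shFABP4 libraries PSMC3 lay below and PSMC5 above pLKO, each without passing. PSMC4 was at 504 and 607 scaled CPM in shFABP4 and 585 and 561 in pLKO, with the shFABP4 libraries on either side. PSMC6 had 47 and 739 fragments in shFABP4, with 28.5 expected from background in shFABP4 1, against 225 and 315 in pLKO.

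The non-ATPase genes held the lowest fold changes of the family. PSMD2, a scaffold of the base that docks ubiquitin shuttles (chr3:184299198-184309050, plus strand), had 248 and 2749 fragments in shFABP4, against 5520 and 8319 in pLKO. In scaled CPM these are 571 and 236 in shFABP4, against 996 and 980 in pLKO. PSMD3, a lid subunit (chr17:39980807-39997959, plus strand), had 720 and 355 scaled CPM in shFABP4, against 1290 and 1260 in pLKO. For both genes the shFABP4 libraries lay below pLKO but far from each other, and neither passed (log2 fold changes -1.33 and -1.27, SE 0.47 and 0.39, adjusted p = 0.0980 and 0.0731, edgeR). PSMD13, a lid subunit (chr11:236966-252984, plus strand), had 499 and 323 scaled CPM in shFABP4, against 827 and 821 in pLKO. It fell by 1.02 on the log2 scale (SE 0.25, adjusted p = 0.0481, edgeR), a call that was lost with RLE or upper-quartile scaling, with a stricter high-signal set (multiple of 10), with background subtracted (adjusted p = 0.0560) and with a high-signal set predicted from pLKO alone (adjusted p = 0.0707). PSMD8 and PSMD4, the remaining high-signal genes of this group, had log2 fold changes of -0.32 and -0.22 (adjusted p = 0.285 and 0.565, edgeR).

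Within its pair of base scaffolds, PSMD2 showed a shift that needs no scaling. It made up 46.3% of PSMD2 and PSMD1 fragments in shFABP4 1 (42.0 to 50.6%) and 31.2% in shFABP4 2 (30.3 to 32.2%), against 74.8% and 75.2% in pLKO. Subtraction of background moved shFABP4 1 to 48.4%. PSMD1 was thus the larger of the scaffolds by fragments in shFABP4 2, and PSMD2 in both pLKO libraries. In shFABP4 1 the interval includes equal shares, so which was larger there is not settled. PSMD1 itself had 288 and 6053 fragments in shFABP4, 79.6 of them expected from background in shFABP4 1, and 1859 and 2751 in pLKO. Non-ATPase genes as a group took 22.3% and 16% of proteasome fragments in shFABP4, against 26.9% and 26.6% in pLKO, and without PSMA7 in the total 27.6% and 21.5% in shFABP4, against 30.2% and 29.9% in pLKO. PSMD14, the lid's ubiquitin-removing enzyme, had 78 and 3080 fragments in shFABP4, 27.8 of them expected from background in shFABP4 1, against 737 and 1097 in pLKO. PSMD5, a chaperone of base assembly, had 62 and 328 fragments in shFABP4, against 110 and 201 in pLKO, and PSMD9, another such chaperone, had 85 and 201 in shFABP4, against 24 and 33 in pLKO. For PSMD9 the background expected in shFABP4 1 was 93.4, more than was counted, and for PSMD5 it was 22.2.

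The stretch upstream of PSMD3 is printed as that of a gene with a low fold that carries the core of the antioxidant response element, TGACNNNGC, which the factors NFE2L1 and NFE2L2 are known to bind. It is chr17:39980677-39980806 of GRCh38.p14 (RefSeq, plus strand), and the capitals mark the core.
PSMD3: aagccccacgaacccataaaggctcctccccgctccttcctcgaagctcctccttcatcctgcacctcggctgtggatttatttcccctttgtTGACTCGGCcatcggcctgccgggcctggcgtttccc
On either strand this core was found for 13 of the 42 members with a sequence (31%) and for 13.2% of all genes. Among high-signal members with it, PSME1 and PSMC5 lay above pLKO in scaled CPM in both shFABP4 libraries. PSMA4, PSMB3, PSMD3 and PSME2 lay below. Of all 22 high-signal members, 8 lay above and 12 below. Whether the core is related to direction was not tested.

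The activator genes PSME1 and PSME2 changed in opposite directions. Their products form a mixed ring that opens the core, and both genes are known to respond to interferon. They are neighbours on chromosome 14 (PSME1 at chr14:24136163-24138967, plus strand, PSME2 at chr14:24143362-24147570, minus strand). PSME1 had 371 and 14216 fragments in shFABP4, against 2688 and 3960 in pLKO, and 854 and 1220 scaled CPM in shFABP4, against 485 and 467 in pLKO. PSME2 had 167 and 4007 fragments in shFABP4, against 3379 and 5070 in pLKO, and 384 and 344 scaled CPM in shFABP4, against 610 and 597 in pLKO. Neither gene's groups overlapped. PSME1 rose by 1.13 on the log2 scale with an SE of 0.22 (edgeR, adjusted p = 0.0299). PSME2 fell by 0.73 on the log2 scale (SE 0.14, adjusted p = 0.0247, edgeR).

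The ratio of the partners to each other does not depend on the library scaling. PSME1 made up 69.0% of PSME1 and PSME2 fragments in shFABP4 1 (64.9 to 72.9%, exact binomial) and 78.0% in shFABP4 2 (77.4 to 78.6%), against 44.3% in pLKO 1 and 43.9% in pLKO 2. So PSME1 was the larger partner in both shFABP4 libraries and the smaller in both pLKO libraries. With background subtracted, shFABP4 1 moved to 73.2%, further from pLKO. Because fragments that fall on exons of more than 1 gene name are not counted, overlap could bear on such a ratio: 0.895% of the principal PSME1 transcript and 12% of the PSME2 transcript are shared, for PSME2 with RNF31. Whether a different use of the shared PSME2 exons moves the ratio was not tested.

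Sequences before the RefSeq start of both are printed because this pair carried opposite calls from adjoining loci. The PSME2 site ends 8 bases before that start, within the longer PSME2 interval of the deposited annotation given above. For PSME1 the stretch chr14:24136033-24136162 (GRCh38.p14, RefSeq, plus strand) has the antioxidant response element core in capitals, and for PSME2 the site chr14:24146619-24146648 (minus strand) has the interferon-stimulated response element core in capitals. That core was searched as TTTC, any 2 bases and TTTC again on both strands, and the PSME2 match lies on the opposite strand to the one printed.
PSME1: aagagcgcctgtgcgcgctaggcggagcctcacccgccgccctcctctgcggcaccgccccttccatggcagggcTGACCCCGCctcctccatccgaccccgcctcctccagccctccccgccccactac
PSME2: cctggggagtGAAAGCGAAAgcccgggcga
The interferon core was found for 5 of the 42 members (11.9%) and 3.71% of all genes, and the 5 were PSMA4, PSMB4, PSMB10, PSME2 and PSMG4. The PSME1 window did not hold these letters, which says nothing of the factors that act there. PSME3, whose product forms a nuclear ring of its own, had 161 and 2516 fragments in shFABP4, against 1139 and 1730 in pLKO. PSME4, a large single-chain activator, had 103 and 202 in shFABP4, against 101 and 149 in pLKO, with 52.4 expected from background in shFABP4 1.

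**Figure D4:**
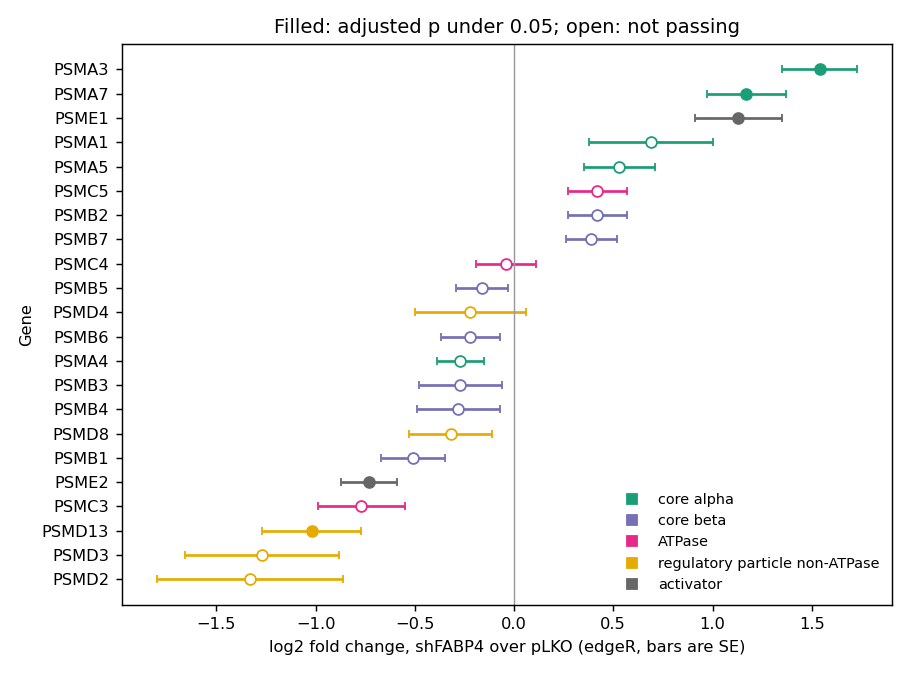
Log2 fold change of shFABP4 over pLKO with its standard error for the 22 high-signal proteasome genes (edgeR, 2 libraries per group), colours showing the group of subunits and filled points an adjusted p under 0.05. PSMA3, PSMA7 and PSME1 lie at the top at 1.54, 1.17 and 1.13, and PSMD2 and PSMD3, though lowest at -1.33 and -1.27, are open points with the widest error bars of the 22.

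No gene of the inhibitor and assembly group was in the high-signal set. PSMF1, the core inhibitor, had 154 and 1625 fragments in shFABP4, with 80.0 expected from background in shFABP4 1, against 474 and 756 in pLKO. PSMG1, a chaperone of alpha ring assembly, had 17 and 164 in shFABP4, against 211 and 311 in pLKO. Its count in shFABP4 1 was close to the 16.6 expected from background. PSMG2, the partner of PSMG1, had 44 and 612 fragments in shFABP4, against 182 and 306 in pLKO. PSMG3, of another chaperone pair, had 78 and 2134 in shFABP4, against 925 and 1506 in pLKO. In shFABP4 1 background was expected to give 29.4 fragments of PSMG2 and 32.0 of PSMG3. Over all genes none of these 4 passed, with log2 fold changes of -0.15 for PSMF1, -2.18 for PSMG1, -0.32 for PSMG2 and -1.04 for PSMG3 (edgeR adjusted p = 0.904, 0.391, 0.810 and 0.576). PSMG1 stood lower than pLKO in shFABP4 2 even as raw fragments, although that library was the deepest.

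The comparison was also made with shFABP4 2 alone, which leaves out the library with background. A group of 1 library has no spread of its own and was assumed to vary like the pLKO libraries. With all genes scaled together, 14 of 44 members were higher and 22 lower, 31.8% and 50%, while 34.2% and 32.7% of 15301 genes were (edgeR). Scaled on the high-signal set, shFABP4 2 stood a median of 0.42 higher on the log2 scale, and 10 of the 22 genes were higher and 8 lower, with 45.8% and 46.6% of high-signal genes called. The surplus of lower genes in the first count is therefore not seen in the second, which has other genes and another scaling. The calls changed sign for 2 genes, PSMC4 and PSMD4 (-0.27 for each on the first scale, 0.14 for each on the second). The genes outside the high-signal set can be read here on the first scale only. PSMG1 was at -1.76 (SE 0.16), PSMB8 at -1.0 (SE 0.05), PSMB9 at -0.78 (SE 0.07), PSMD14 at 0.66 (SE 0.06) and PSMD9 at 1.73 (SE 0.24), all passing. The genes called with all libraries had log2 fold changes in shFABP4 2 of 0.99 for PSMA3, 0.98 for PSMA7, 1.01 for PSME1, -1.16 for PSME2 and -1.71 for PSMD13 on that scale. PSMD2 and PSMD3 were lowest of the family at -2.42 and -2.20 (SE 0.04 each). On the high-signal scale their values were -2.0 and -1.78 in shFABP4 2, and -0.79 and -0.82 in shFABP4 1 alone, the same side in both libraries at unequal sizes. In shFABP4 1 alone, 7 of the 22 were higher and 12 lower, where 37.5% and 39.8% of high-signal genes were called (edgeR).

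Some subunits that every cell needs were nearly uncounted. PSMA2 had 44 and 9 fragments in shFABP4, against 1 and 1 in pLKO. PSMA6 had 47 and 7 in shFABP4, against 0 and 3 in pLKO. PSMC1 had 12 and 20 in shFABP4, against 1 and 5 in pLKO. Background alone was expected to give 42.2, 24.8 and 47.3 fragments of these genes in shFABP4 1. All are constitutive parts of the core or the ATPase ring, and their transcripts lie under exons of another gene name over 99.1%, 81.0% and 82.2% of their length. PSMB10, the remaining inducible catalytic gene, had 30 and 15 fragments in shFABP4, against 6 and 7 in pLKO. For PSMB10 30.7 were expected from background in shFABP4 1, and 45.3% of its transcript is shared. The table was counted by gene name with no option for overlapping names, per the file headers, so a fragment on shared exons goes to no gene. No fold is given for these 4 genes, and how much of their low counts lies in the overlap was not tested. In all, 8 of the 48 principal transcripts were shared over at least 25% of their length and 33 over none of it. PSMA1 at 53.2%, PSMD7 at 50.4% and PSMC5 at 27.2% were shared too, yet kept 108, 25.9 and 401 CPM per kb of transcript in pLKO 1. PSMD9, whose fold is given above, was shared over 28.2% and had 0.959 CPM per kb there.

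**Figure D5:**
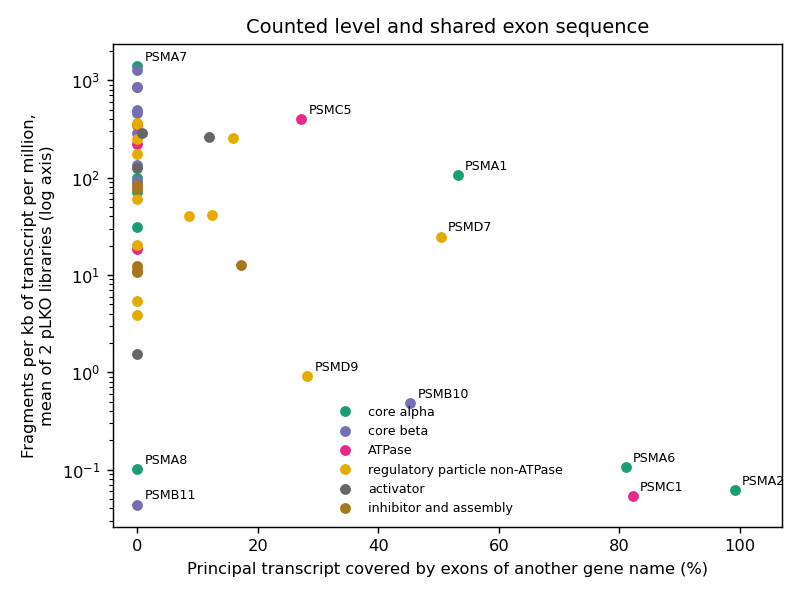
Mean level of each proteasome gene in the 2 pLKO libraries, as CPM per kb of principal transcript on a log axis, against the percentage of that transcript covered by exons of another gene name. PSMA2, PSMA6 and PSMC1, at 99.1%, 81.0% and 82.2%, lie near the bottom, while most genes with no shared sequence lie far above them.

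Genes that work with the proteasome but fall outside the naming rule were read from a list of 38, covering ubiquitin, shuttle receptors, deubiquitinases, assembly factors, the VCP unfoldase and transcription factors of proteasome genes. Over all genes 0 of the 38 passed (edgeR, DESeq2 and limma-voom, and 0 had an unadjusted p under 0.05 in edgeR), with a median log2 fold change of -0.41. Of the 7 in the high-signal set 1 rose, ZFAND5. This gene, whose product binds and stimulates the proteasome, had 178 and 6284 fragments in shFABP4, against 382 and 561 in pLKO, or 410 and 540 scaled CPM in shFABP4, against 68.9 and 66.1 in pLKO. On the log2 scale it rose by 2.83 with an SE of 0.19 (edgeR, adjusted p = 0.0107), and the groups were far apart. ZFAND5 entered the high-signal set through its level in shFABP4 2. Predicted from pLKO alone, its RNA would be under 5 times the 26.9 fragments expected from background. The call thus rests on a gene admitted by the group in which it is high. RPS27A, which encodes ubiquitin fused to a ribosomal protein, had a log2 fold change of 0.47 and POMP, the chaperone of core maturation, of 0.45 (adjusted p = 0.0838 and 0.118, edgeR), and neither passed.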

How the data were processed

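The authors deposited raw fragment counts, summed by gene name over GENCODE 38 exons with featureCounts 2.0.0 and no strand option, per the file headers. The merged exon length was also taken from the deposited table. The submitters' processing notes name GRCh38, StringTie, HISAT and FastQC, and mRNA was captured on beads and cut with Tn5, per the labels' protocols. Without strand, antisense or overlapping partners and near-identical copies cannot be told apart. Lines of 1 broken row (7 lines) were left out, leaving 59384 gene names.

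The main test was the robust quasi-likelihood F test of edgeR 4.0.16 (R 4.3.3), two-sided and without covariates, after TMM scaling and filterByExpr (count 10, total 15), with a Benjamini-Hochberg threshold of 0.05. The SE is the absolute log2 fold change divided by the square root of F. Background in shFABP4 1 was estimated per kb in 6 GC bins from 2656 coding genes without a fragment in the other libraries (3.81 to 18.9 fragments per kb). High-signal genes, 15.5% of the fragments of shFABP4 1 and 60.4 to 62.8% of the others, had an expected RNA of at least 5 times background, predicted from the mean share of the other 3 libraries. The same 22 members were in the set predicted from pLKO alone. GC content and principal transcripts came from GENCODE 29. Ratios and shares are of raw fragments, with exact Clopper-Pearson intervals at 95%, and the limit for a count of 0 is 3 counts. Alternatives were DESeq2 1.42.0, limma 3.58.1 (voom), RLE, upper-quartile and total scaling, no filter, the replicate number as a block, each library left out, multiples of 2 and 10 for the high-signal set, a set from pLKO alone, a spline correction for GC content and length (4 degrees of freedom) and subtraction of background. The fits were also run on simulated data with 1 common spread and no background particular to shFABP4 1. That simulation therefore cannot check how the fits behave on these libraries.

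Genes were named by role (catalytic subunits, PSMD14, PSMF1, tissue-restricted members), by a call among high-signal genes, and as the 2 highest and 2 lowest log2 fold changes of each group among those with a mean of at least 20 counts in pLKO. Values of other members are shown for completeness and were chosen after they were seen. The members, the lists and the high-signal set were chosen with earlier results of these data known. A few genes of the pathway list are not reported here. Background subtraction of the shares was added after seeing the data.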

Additional observations from a re-analysis of the deposited data

How the results depend on the processing

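With DESeq2 2 members were called over all genes (4.65%, beside 4.88% of all genes) and 8 among high-signal genes (36.4%, beside 44.9%), with limma-voom 0 and 10 (45.5%, beside 50%), and with library totals 0 and 0, against 0 and 5 as reported. Leaving out each library gave 0 to 45 calls over all genes (0 to 95.7%, beside 0 to 85.9% of all genes), 2 to 19 among high-signal genes (9.09 to 86.4%, beside 11.6 to 92.5%), and a member median from -3.37 to -0.16. Without either pLKO library, 2 calls were left (PSMA3 and PSMD2, for PSMD2 with an edgeR adjusted p of 0.0464 without pLKO 1 and 0.0450 without pLKO 2), and without shFABP4 1 or 2, 18 and 19, each fit assuming that the lone library varies like the others. The same-number libraries did not deviate together (correlation 0.0106, 2 pairs), and with the replicate block 8 high-signal members were called (36.4%, beside 42.6% of high-signal genes). With background subtracted, shares in shFABP4 1 were 73.2% for PSME1, 16.9% for PSMB8, 13.4% for PSMB9 and 22.5% for PSMA7. Of 325 values for 29 named genes, 220 kept direction and side of the threshold, 21 lost a call, 53 gained one and 31 changed sign. The sign changed with the GC and length correction for PSMA5 (-0.12), PSMB2 (-0.07), PSMB5 (0.01), PSMB6 (0.11) and PSMC4 (0.22), and with library totals for PSMA5 (-0.28), PSMB2 (-0.25), PSMB7 (-0.38), PSMC5 (-0.26), PSMC6 (0.39), PSMD14 (0.27), PSMD5 (0.91), PSMF1 (0.62) and PSMG2 (0.36). PSMC4 also changed sign with RLE (0.01), a multiple of 10 (0.08), a set from pLKO alone (0.09) and upper-quartile scaling (0.08), as did PSMD5 (0.16) and PSMF1 (0.01) with upper-quartile scaling, and PSME4 with no filter (-0.25). Leaving out each library in turn, the sign changed over ranges of -0.18 to 0.14 for PSMC4, -2.61 to 0.36 for PSMC6, -3.64 to 0.66 for PSMD14, -1.40 to 0.00 for PSMD5, -2.07 to 0.32 for PSMF1 and -2.54 to 0.25 for PSMG2, each highest without shFABP4 1, and PSME4 lay at -0.39 to -0.15. The cause was not tested. Counts near background in shFABP4 1 limit the 26 members outside the high-signal set.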

Other observations

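Other genes of the pathway list were read in shFABP4 2 alone against pLKO, scaled over all genes, where 16 of the 38 were higher and 13 lower (edgeR, 34.2% and 32.7% of all genes). UBQLN2, a ubiquitin shuttle that delivers substrates, had 272 fragments in shFABP4 2, against 36 and 51 in pLKO (log2 fold change 1.55, SE 0.21). TXNL1, a thioredoxin-like protein bound to the regulatory particle, had 1384, against 176 and 295 in pLKO (1.47, SE 0.09). Of the transcription factors, NFE2L1, which is known to raise proteasome genes when the proteasome is inhibited, had 2920, against 2959 and 4305 in pLKO (-1.41, SE 0.04), and its protease DDI2 had 81, against 66 and 105 (-1.16, SE 0.24). IRF1, an interferon-responsive factor, had 1839, against 360 and 535 in pLKO (0.95, SE 0.07), and NFE2L2 had 297, against 118 and 184 (-0.11, SE 0.16, not passing). These values rest on 1 shFABP4 library. In shFABP4 1 the same genes had 5 (UBQLN2), 83 (TXNL1), 254 (NFE2L1), 79 (DDI2), 228 (IRF1) and 16 (NFE2L2) fragments, with 21.4, 43, 95.4, 61.4, 131 and 43.8 expected from background.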
